A study of Homo sapiens with 8 samples.

Results

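Chemokines are small secreted proteins that bind G protein-coupled receptors and direct cell migration, and the cytokines of the IL-6 family act through receptors that share the signal-transducing subunit IL6ST (gp130) and activate JAK kinases and STAT3. CXCL12 (SDF-1) signals through CXCR4 and is also bound and cleared by ACKR3 (CXCR7), an atypical receptor. CXCL1, CXCL2 and CXCL8 attract neutrophils through CXCR1 and CXCR2, and CCL2 attracts monocytes through CCR2. In renal carcinoma the CXCL12-CXCR4 axis is known for its link with dissemination, and transcription of IL6, CXCL8 and the related ligands is a classical output of NF-kappaB.

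The response of 10 such genes to branched-chain amino acids (BCAA: leucine, isoleucine and valine) was examined: CXCL12, CXCR4, ACKR3, CXCL1, CXCL2, CXCL8, CCL2, IL6, IL11 and LIF. They were found by their Ensembl identifiers in the expression tables of 2 clear cell renal cell carcinoma (ccRCC) lines, in which 10 of the 25431 genes of the 769-P table and 8 of the 24190 genes of the CAKI-1 table were members. CXCL12 was chosen by its measured log2 fold change with BCAA in 769-P, a large increase, so its values in that comparison are given as a description without a test.

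Both lines are established human ccRCC lines, and each was cultured for 16 hours with BCAA (valine at 0.17 mM, and leucine and isoleucine each at 0.38 mM) or without BCAA, in 2 libraries per group and 8 in all. Per the study's methods, BCAA-depleted medium was made from amino acid-free RPMI with dialyzed serum, and routine culture used RPMI for 769-P and MEM for CAKI-1. The methods do not state the medium of each RNA-seq group or its other amino acids. Nothing in the labels states that replicates were separate cultures, so the p-values measure the spread between these libraries, which may be technical. Each line is 1 established tumour cell culture grown without other cell types, and a change in mRNA per cell cannot be told apart from a change in the share of cells that express a gene.

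The libraries held 30979773 to 64256834 reads assigned to genes, and in 769-P both libraries with BCAA (64256834 and 55829324) were deeper than those lacking it (39062721 and 40130258). Values are normalized read counts, that is, reads divided by one size factor per library, and the sentences below give the underlying reads beside them. Of the renal epithelial markers, 9 of 10 were present in 769-P and 8 of 10 in CAKI-1, with CA9 in neither table and PAX2 only in 769-P. Their summed normalized counts in 769-P were 146765 to 150543 with BCAA and 146389 to 148168 without. In CAKI-1 the sums were lower with BCAA (82414 to 85212 against 118419 to 122665). Of 10 leukocyte markers, 4 passed the filter on low values in each line, at summed normalized counts of 249 to 399 per library in 769-P and 73.4 to 148 in CAKI-1, and CD3E, MS4A1, FCGR3A, LCP2 and TYROBP were in neither table. The summed leukocyte markers were higher with BCAA in both lines (333 to 399 against 249 to 299, and 107 to 148 against 73.4 to 87.4), with 1 marker called, CSF1R in 769-P (33 and 29 reads with BCAA, 7 and 3 without). Of the stromal and endothelial markers, PDGFRB was called higher with BCAA in 769-P (200 and 178 reads against 27 and 40, log2 fold change 1.88) and in CAKI-1 (1652 and 1406 reads against 959 and 715, 0.58). In 769-P it was the single call among 3 such markers tested (median 1.68), and COL1A1 was lower but not called (-0.41). Summed values of the whole list were 310 to 337 with BCAA and 251 to 265 without in 769-P, but 125028 to 149615 and 102493 to 120315 in CAKI-1, almost all of it COL1A1 (149247 and 145235 reads with BCAA, 103756 and 90401 without). The part of any of these marker lists in the results below was not tested.

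The stretches 250 bases upstream of the start site are shown for 5 ligands. They are CXCL1 and CXCL2, whose windows are closely related, CXCL8 and IL6, which also carry NF-kappaB-like matches, and CXCL12, which carries none. Whether these matches bear on the BCAA effect was not tested. Sequences are from RefSeq (GRCh38.p14), 5′ to 3′ on the strand of the gene, with matches to GGNNNTTCC on either strand in capitals. The windows lie at chr10:44385098-44385347 (CXCL12, minus strand), chr4:73869143-73869392 (CXCL1, plus strand), chr4:74099196-74099445 (CXCL2, minus strand), chr4:73740319-73740568 (CXCL8, plus strand) and chr7:22726950-22727199 (IL6, plus strand).
CXCL12: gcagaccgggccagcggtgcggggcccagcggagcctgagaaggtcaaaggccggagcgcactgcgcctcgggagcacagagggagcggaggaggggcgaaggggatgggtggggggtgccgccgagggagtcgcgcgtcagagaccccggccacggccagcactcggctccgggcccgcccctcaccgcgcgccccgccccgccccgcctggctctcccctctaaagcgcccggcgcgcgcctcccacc
CXCL1: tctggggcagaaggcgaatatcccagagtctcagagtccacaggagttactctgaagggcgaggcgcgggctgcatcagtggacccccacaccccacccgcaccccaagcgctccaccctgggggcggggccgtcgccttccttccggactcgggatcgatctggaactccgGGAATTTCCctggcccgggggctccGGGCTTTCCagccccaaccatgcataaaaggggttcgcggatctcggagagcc
CXCL2: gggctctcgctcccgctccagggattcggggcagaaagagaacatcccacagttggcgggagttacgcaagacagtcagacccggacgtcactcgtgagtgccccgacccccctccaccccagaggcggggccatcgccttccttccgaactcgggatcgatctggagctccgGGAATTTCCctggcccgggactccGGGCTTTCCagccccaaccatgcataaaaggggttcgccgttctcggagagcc
CXCL8: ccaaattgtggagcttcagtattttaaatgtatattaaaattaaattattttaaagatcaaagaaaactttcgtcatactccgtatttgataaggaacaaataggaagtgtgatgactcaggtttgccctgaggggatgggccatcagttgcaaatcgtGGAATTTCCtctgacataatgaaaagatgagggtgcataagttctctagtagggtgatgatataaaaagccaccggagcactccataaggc
IL6: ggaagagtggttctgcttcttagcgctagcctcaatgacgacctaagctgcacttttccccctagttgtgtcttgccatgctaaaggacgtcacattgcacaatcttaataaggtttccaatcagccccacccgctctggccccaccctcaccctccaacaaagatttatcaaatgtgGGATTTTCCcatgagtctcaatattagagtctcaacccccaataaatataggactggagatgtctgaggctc

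Promoters of 7 of the 10 members were examined (these 5, CXCR4 and IL11), and those of ACKR3, CCL2 and LIF were not analysed here. CXCL1 and CXCL2 each held 2 NF-kappaB-like matches at nearly the same places, GGAATTTCC at -78 to -70 (CXCL1) or -77 to -69 (CXCL2) and GGGCTTTCC at -53 to -45 in both, counted in bases from the start site. CXCL8 had GGAATTTCC at -91 to -83, IL6 had GGATTTTCC at -72 to -64, and the first of the CXCR4 windows had a match on the reverse strand at -230 to -222. CXCL12 and IL11 had none in these windows of 300 bases. GGNNNTTCC occurred in 20.1% of 35116 RefSeq promoters of the same length. The AP-1 motif TGANTCA, in 7.71% of promoters, was found in CXCL8 (-137 to -131) and IL11 (-96 to -90). The C/EBP-like TTNNGNAA, in 36.8% of promoters, was found in CXCR4, CXCL2 and IL6, and in CXCR4 it overlapped the NF-kappaB-like match. TGATGNAA, a core of the amino acid response element (3.62% of promoters), and the hypoxia response element core ACGTG (21.4%) matched none of the 7. The windows of CXCL1 and CXCL2 were identical at 71.4% of 276 aligned positions, against 41.6% to 53.0% for the other pairs. These matches are letters in a window and do not show that a factor binds there.

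**Figure D1:**
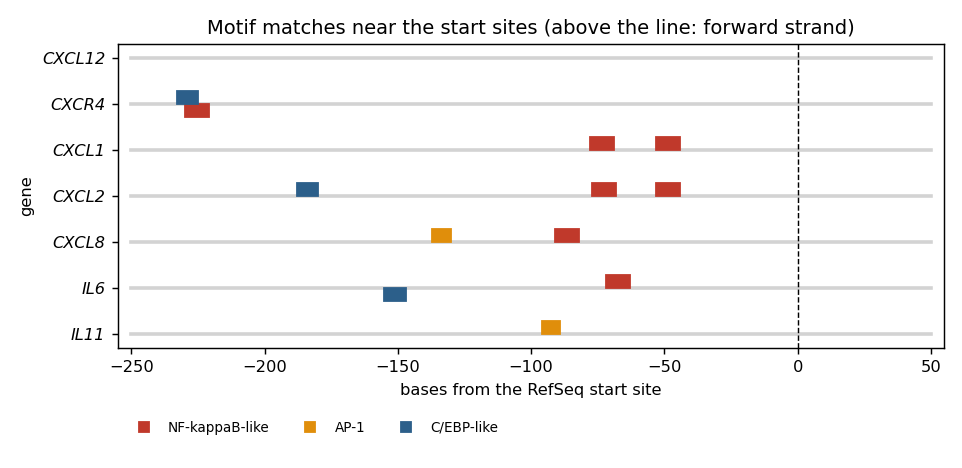
Positions of motif matches in bases from the RefSeq start site (x axis) in the promoter windows of 7 genes, one grey line per gene, with blocks above the line on the gene's strand and below it on the other. CXCL1 and CXCL2 show the same pair of NF-kappaB-like matches (-78 to -45 and -77 to -45), and CXCL12 shows no match.

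CXCL12, the ligand of CXCR4, gave the largest log2 fold change of the 22391 genes tested in 769-P, which is the value it was chosen for. With BCAA its libraries held 4292 and 4066 reads of the gene, and without BCAA 121 and 104. Normalized counts were 3366 ± 157 (SD, n = 2) with BCAA and 139 ± 16.3 without, a log2 fold change of 4.59 on the log2(value + 1) scale, given as a description. CXCL12 has no row in the CAKI-1 table, where every listed gene has at least 2 reads over its 4 libraries. Absence of a row is not a measured 0, since MIF, a widely transcribed cytokine whose exons overlap another gene on the same strand, has no row in either table. CXCL12 overlaps no exon of another gene in GENCODE 29.

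The genes whose pattern over the 4 libraries of 769-P was closest to that of CXCL12, by Euclidean distance of centred log2(value + 1), were DIO3 (distance 0.516), SULT1B1 (0.652), PAX5 (0.754), KRT25 (0.878) and RASL11A (0.962). DIO3, a deiodinase that inactivates thyroid hormone, had 880 and 700 reads with BCAA and 33 and 19 without, and SULT1B1, a sulfotransferase, had 7983 and 6562 against 275 and 308. PAX5, KRT25 and RASL11A had between 2 and 8 reads in each library without BCAA. None of these 5 is a chemokine or cytokine, and the likeness is a description over 4 libraries.

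Neither receptor of CXCL12 was called higher with BCAA. CXCR4 in 769-P had 0 and 11 reads with BCAA and 24 and 50 without, so all libraries were low and those without BCAA were the higher ones. Its normalized counts were 4.70 ± 6.65 with BCAA and 45.5 ± 22.2 without (SD, n = 2), a log2 fold change of -3.76 (95% interval -5.76 to -1.77, limma adjusted p = 0.0057). This call rests on few reads and ended in 7 of 14 alternatives: the adjusted p was 0.072 without a filter on low values, 0.078 after quantile normalization, 0.25 with DESeq2, and between 0.062 and 0.33 with each library left out. The fold change ranged from -5.45 without replicate 2 of the BCAA group to -2.07 without replicate 1, and was -4.27 and -3.26 without replicates 1 and 2 of the group without BCAA. In CAKI-1, CXCR4 had 1 and 0 reads with BCAA and 1 in each library without, all under 3 reads, so no fold was computed. ACKR3 was the reverse: 769-P had 1, 1, 1 and 0 reads, whereas CAKI-1 had 59 and 57 reads with BCAA and 66 and 50 without. In CAKI-1 the ACKR3 change was -0.28 (95% interval -0.87 to 0.31, limma adjusted p = 0.54), with normalized counts of 52.4 ± 7.05 and 63.5 ± 1.14 (SD, n = 2).

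Among the neutrophil-attracting ligands of 769-P, CXCL8 and CXCL2 were lower with BCAA and CXCL1 was not called. CXCL8 had 3061 and 2353 reads with BCAA and 4026 and 4486 without, although the libraries with BCAA were the deeper ones. This corresponds to 2167 ± 218 against 5243 ± 343 normalized counts (SD, n = 2), a log2 fold change of -1.28 (95% interval -1.43 to -1.12, limma adjusted p = 4.7e-08), and the call was kept in all 15 alternatives. CXCL2 had 106 and 104 reads with BCAA against 216 and 193 without, with normalized counts of 84.7 ± 6.05 and 252 ± 22.8, and fell by 1.56 (95% interval -1.95 to -1.18, limma adjusted p = 1.8e-05). The CXCL2 change was -1.49 without BCAA-group replicate 1 (adjusted p = 0.053 in limma) and -1.47 without replicate 1 of the group lacking BCAA (adjusted p = 0.056 in limma). CXCL1 stood the other way, with 63 and 53 reads with BCAA and 17 and 28 without. Its groups did not overlap (46.5 ± 1.73 against 27.7 ± 9.28), but the change of 0.77 (95% interval -0.03 to 1.56) did not pass the test (limma adjusted p = 0.12). It did so with the spread taken from all 8 libraries (adjusted p = 0.0015, limma). That spread draws on CAKI-1, where CXCL1 had 25764 to 59414 reads per library, and can understate the counting error of these low reads. Of all genes tested in 769-P, 33.6% had both libraries with BCAA above both without. CXCL1 and CXCL2, whose promoter windows are printed above, lay on opposite sides of 0 in 769-P. The CXCL1 interval includes 0, and the difference between the 2 genes was not tested. CXCL2 shared 3.88% of its 50-base stretches with CXCL1 and 8.99% with CXCL3, so a small part of its reads may be split between them.

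CCL2, the monocyte attractant, was the member other than CXCL12 that rose with BCAA in 769-P. It had 250 and 145 reads with BCAA and 46 and 56 without, or 157 ± 46.4 and 62.8 ± 8.02 normalized counts (SD, n = 2). The log2 fold change was 1.28 (95% interval 0.74 to 1.82, limma adjusted p = 0.0013). Its 2 libraries with BCAA stood apart, at a ratio of 0.654 of replicate 2 to replicate 1, and 99.8% of the 11855 genes whose mean was 100 or more had a higher ratio. With any of the 4 libraries left out the change stayed positive but did not pass the test, at 0.98 and 1.58 without replicates 1 and 2 with BCAA and 1.15 and 1.41 without replicates 1 and 2 lacking BCAA (limma adjusted p from 0.074 to 0.16). CCL2, like CXCL12, has no row in the CAKI-1 table.

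Of the IL-6 family cytokines in 769-P, IL6 and LIF were lower with BCAA and IL11 was not called. IL6 had 7 and 5 reads with BCAA and 45 and 84 without, and its groups were far apart. Normalized counts were 4.79 ± 0.73 and 79.3 ± 33.1 (SD, n = 2), a log2 fold change of -3.74 (95% interval -4.76 to -2.71, limma adjusted p = 4.3e-05), rank 21 from the lowest of the 22391. The IL6 value was -3.86 and -3.61 without BCAA replicates 1 and 2 and -3.30 without replicate 2 lacking BCAA, each with a limma adjusted p above the threshold (0.055 to 0.081). LIF, an abundant member, had 5306 and 4217 reads with BCAA and 4780 and 4796 without, which is 3815 ± 295 against 5901 ± 51.1 normalized counts. It fell by 0.63 (95% interval -0.76 to -0.51, limma adjusted p = 2.8e-06), and without replicates 1 or 2 of the group lacking BCAA the change was -0.62 and -0.64 with adjusted p of 0.069 and 0.065 in limma. IL11 had 42 and 33 reads with BCAA and 28 and 32 without, a change of -0.29 (95% interval -1.05 to 0.47, limma adjusted p = 0.56). Exons of IL6 and LIF overlap other genes on the opposite strand, and whether reads were counted by strand is not given in the sources used here.

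**Figure D2:**
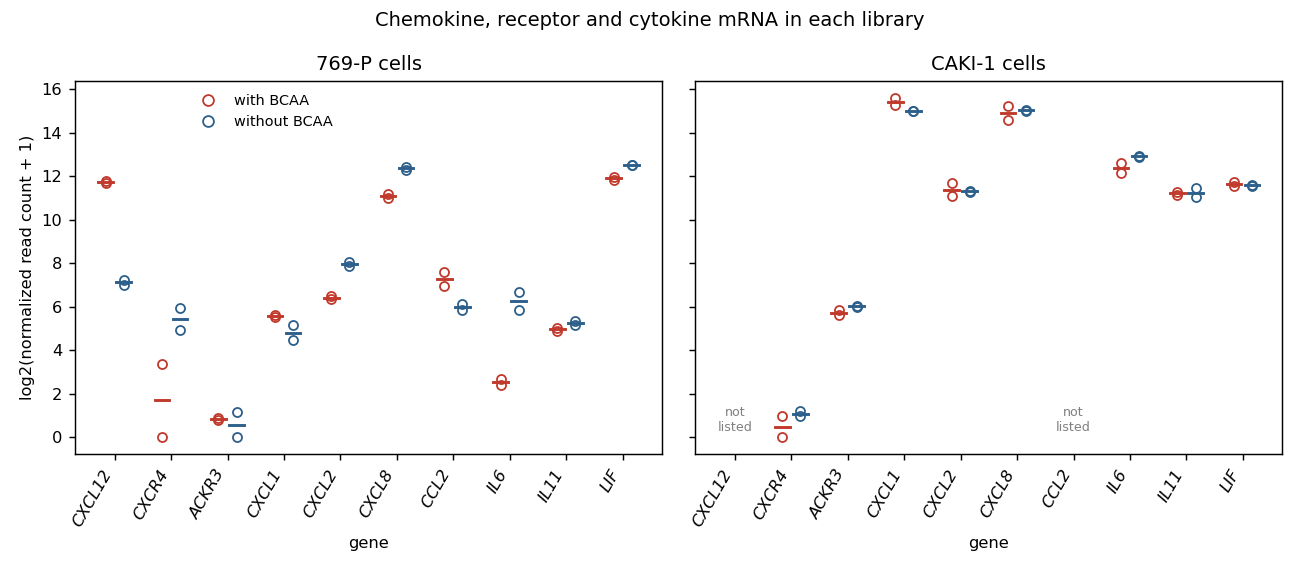
Log2(normalized read count + 1) of the 10 genes (x axis) in every library of 769-P (left) and CAKI-1 (right), with open circles for single libraries and bars for the mean of 2 libraries per group. In 769-P, CXCL12 is far higher with BCAA and IL6, CXCR4, CXCL2 and CXCL8 are lower, and in CAKI-1 the 2 libraries with BCAA are wider apart than those without for CXCL2 and CXCL8.

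Counting the members other than CXCL12, 8 were tested in 769-P, of which 1 was called higher and 5 lower with BCAA. Over all 22391 genes, limma called 20.3% higher and 18.2% lower, or 38.4% in either direction. The median log2 fold change of these 8 was -0.95, against -0.02 for all genes. Since the members were chosen with earlier results of these data known, such counts, here and for CAKI-1 below, are descriptions. Depth went with the condition in 769-P. With reads thinned to the smallest library total, each of the 6 calls was kept. Thinning evens out read totals only and cannot separate BCAA from other library differences that went with depth. The part of such differences in these calls was not tested.

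In CAKI-1, CXCL1 was higher and IL6 lower with BCAA, and the members tested other than ACKR3 had at least 2001 reads in every library. CXCL1 had 40020 and 59414 reads with BCAA and 34419 and 25764 without, or 44185 ± 7427 against 32933 ± 313 normalized counts (SD, n = 2). It rose by 0.41 (95% interval 0.22 to 0.61, limma adjusted p = 0.0076). IL6 had 4719 and 7393 reads with BCAA and 8253 and 5911 without, or 5371 ± 1104 against 7725 ± 168 normalized counts, and fell by 0.54 (95% interval -0.77 to -0.31, limma adjusted p = 0.0040). Both calls ended after quantile normalization (adjusted p = 0.050 for CXCL1 and 0.065 for IL6, limma) and with the spread from all 8 libraries (0.081 and 0.097). Without BCAA replicates 1 and 2 the CXCL1 change was 0.59 and 0.24 and that of IL6 -0.33 and -0.75. Without replicates 1 and 2 lacking BCAA they were 0.40 and 0.42 for CXCL1 and -0.52 and -0.56 for IL6. None of these passed, in a setting where limma called 0 of 21347 genes with any library left out, though 4084 to 5590 had an unadjusted p under 0.05.

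CXCL2, CXCL8, IL11 and LIF were not called in CAKI-1. CXCL8 had 25478 and 46407 reads with BCAA and 34650 and 26384 without, so the libraries without BCAA lay between the 2 with it after normalization (24786 and 38614 against 32931 and 33952). The CXCL8 change was -0.11 (95% interval -0.43 to 0.21, limma adjusted p = 0.66), and its sign turned to 0.21 without BCAA replicate 1. CXCL2 had 2208 and 3928 reads with BCAA and 2624 and 2001 without, a change of 0.06 (95% interval -0.25 to 0.38, limma adjusted p = 0.81) that became -0.24 without BCAA replicate 2. IL11 had 2323 and 3007 reads with BCAA and 2197 and 2163 without, a change of -0.02 (95% interval -0.27 to 0.23, limma adjusted p = 0.93). LIF had 3114 and 4112 reads with BCAA and 3193 and 2413 without, a change of 0.07 (95% interval -0.09 to 0.22, limma adjusted p = 0.56). Each of these 4 intervals includes 0, and the widest, that of CXCL8, reaches from -0.43 to 0.21.

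The 2 CAKI-1 libraries with BCAA differed from each other in these ligands more than in most genes. The normalized count of replicate 2 over that of replicate 1 was 1.56 for CXCL8, 1.52 for CXCL2, 1.34 for IL6, 1.27 for CXCL1, 1.13 for LIF and 1.11 for IL11, against a median of 1.002 over 11720 genes whose mean was 100 or more. A ratio at least as high was found in 0.461% of those genes for CXCL8, 0.546% for CXCL2, 2.01% for IL6 and 3.42% for CXCL1. In the 2 libraries without BCAA the ratios were 1.03 for CXCL8, 1.03 for CXCL2, 0.970 for IL6, 1.01 for CXCL1 and 1.02 for LIF, but 1.33 for IL11, reached by 1.66% of genes. Replicate numbers carry no order here, and what set these libraries apart was not tested.

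In CAKI-1, 7 members were tested, of which 1 was called higher and 1 lower. Over its 21347 genes 10.8% were called higher and 9.05% lower, and the median log2 fold change was -0.02 for the members and -0.01 for all genes. In either direction 19.9% of all genes were called.

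**Figure D3:**
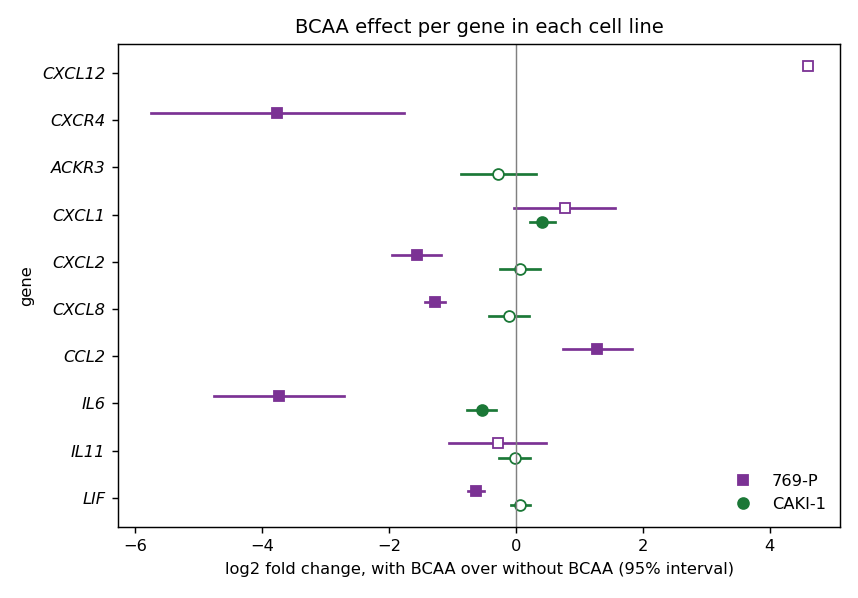
Log2 fold change with BCAA over without BCAA (x axis, points) and 95% intervals (lines, none for CXCL12) for each gene in 769-P (squares) and CAKI-1 (circles), filled where limma's adjusted p was under 0.05 and open otherwise. CXCL12 in 769-P is drawn open as a description (4.59), IL6 is filled on the lower side in both lines (-3.74 and -0.54), and genes with no point had no row or too few reads.

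Whether the BCAA effect differed between the lines was tested by an interaction term for the 6 members tested in both. This fit shared its residual spread over both lines, so it can understate the error of a gene with few reads in 769-P. IL6 fell further in 769-P than in CAKI-1, by -3.20 on the log2 scale (95% interval -3.87 to -2.52, limma adjusted p = 9.8e-06). The IL6 standard error was 0.31, below the 0.47 of the 769-P effect alone, and likewise for CXCL1 (0.23 against 0.36) and IL11 (0.22 against 0.35). The difference was -1.63 for CXCL2 (-2.09 to -1.16, adjusted p = 0.00013), -1.16 for CXCL8 (-1.59 to -0.74, adjusted p = 0.00088) and -0.70 for LIF (-0.91 to -0.49, adjusted p = 0.00015). All 4 were kept in each of the 18 alternatives. For CXCL1 the difference of 0.35 (-0.14 to 0.85, adjusted p = 0.32 in limma) did not pass, except without replicate 2 of 769-P lacking BCAA (0.69, adjusted p = 0.0092). For IL11 it was -0.27 (-0.75 to 0.20, adjusted p = 0.44 in limma). Of the 6 members, 4 were further down in 769-P, against 10.1% of 19406 genes, and 0 further up, against 10.9%. The members were chosen with earlier results of these data known, so these counts are a description.

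Per kilobase of exon (GENCODE 29 lengths), the order of levels within each line was compared. In 769-P with BCAA, LIF (961 ± 74.3 normalized counts per kilobase, SD, n = 2) and CXCL8 (953 ± 96.0) overlapped at the top, followed by CXCL12 (554 ± 25.9), CCL2 (78.9 ± 23.3), CXCL2 (56.4 ± 4.04), CXCL1 (35.9 ± 1.33) and IL11 (11.2 ± 0.960), and CXCR4 (2.11 ± 2.99) overlapped both IL6 (2.32 ± 0.353) and ACKR3 (0.357 ± 0.0303), which did not overlap each other. Without BCAA, CXCL8 (2306 ± 151) was above LIF (1487 ± 12.9) and CXCL2 (168 ± 15.2), and IL6 (38.3 ± 16.0) overlapped with CCL2 (31.6 ± 4.04). CXCR4 (20.4 ± 9.96) overlapped with IL6, CXCL12 (22.8 ± 2.69), CXCL1 (21.4 ± 7.16) and IL11 (13.8 ± 1.15). CXCL12 also overlapped with CXCL1. CXCL12 thus moved from rank 6 of 10, where it overlapped CXCL1 and CXCR4, to rank 3. In CAKI-1 the order was the same in both conditions: CXCL1 (34094 ± 5731 with BCAA and 25411 ± 242 without), CXCL8, IL6, CXCL2, then IL11 and LIF, which overlapped, ACKR3 (23.2 ± 3.12 and 28.1 ± 0.506) and CXCR4 (below 1 in both conditions). The tables were normalized separately, so levels were not tested between lines.

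Related chemokine genes were examined as lists chosen with earlier results of these data known, and their counts are descriptions. Of the CXC ligands other than CXCL12 (with CX3CL1 counted among them), 10 were tested in 769-P, 0 were called higher and 5 lower: CXCL2, CXCL8, CXCL3 (-1.44, 58 and 39 reads with BCAA against 89 and 83), CX3CL1 (-0.87) and CXCL16 (-0.66). CXCL3 is, like CXCL1 and CXCL2, a ligand of CXCR2. CXCL5 and CXCL11 had 1 to 15 reads per 769-P library and were not called, and CXCL6 has no row there. In CAKI-1, 9 were tested, 3 were called higher and 0 lower: CXCL1, CXCL5 (0.57, limma adjusted p = 0.00058) and CXCL6 (0.72, limma adjusted p = 0.0002). CXCL6 had 95441 and 137369 reads with BCAA and 67945 and 47344 without, and CXCL5 had 18908 and 26968 against 14737 and 10343. Both are neutrophil-attracting CXC ligands, and in each the 2 libraries with BCAA were above the 2 without after normalization. Of 4 CC ligands tested in 769-P, CCL2 was higher and CCL20, the ligand of CCR6, lower (-2.75, 8 and 22 reads with BCAA against 57 and 71, limma adjusted p = 0.00062), and of 2 in CAKI-1 none was called. Over all genes 20.3% were called higher and 18.2% lower in 769-P, and 10.8% and 9.05% in CAKI-1. The CXCL5 call in CAKI-1 ended with the spread from all 8 libraries (limma adjusted p = 0.29).

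CXCR1, CXCR2 and CCR2, receptors for these ligands, have no row in either table, which is not a measured 0. Among the chemokine receptors tested (5 in 769-P, 7 in CAKI-1), CXCR4 in 769-P was the single call. Of the genes that process or assist CXCL12, 6 of 11 tested in 769-P were called higher and 1 lower. DPP4, the protease that inactivates CXCL12, rose by 0.65 (2492 and 2414 reads with BCAA, 1037 and 1009 without, limma adjusted p = 1e-05). ARRB1, an arrestin that binds activated receptors, rose by 0.99 and HMGB1, which forms a complex with CXCL12, by 0.78. SDC1 rose by 0.54 and SDC4, the other syndecan listed, fell by 0.54. In CAKI-1, 3 of 10 rose (HMGB1 by 0.56, SDC4 by 0.33 and SDC1 by 0.30) and CD44 fell by 0.23, while the DPP4 change was -0.25 (95% interval -0.52 to 0.02). The counts of this paragraph stand beside 20.3% (769-P) and 10.8% (CAKI-1) of all genes called higher. The shares called lower were 18.2% and 9.05%, and those called in either direction 38.4% and 19.9%.

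In the IL-6 family, 7 cytokines were tested in 769-P, 1 rose and 4 fell. IL6, LIF, CLCF1 (-0.74) and EBI3 (-0.40) fell, and CNTF rose by 0.82 on 121 and 103 reads with BCAA against 48 and 35, a call that ended in 8 of 15 alternatives (values 0.58 to 1.05, adjusted p up to 0.27). Of 8 tested in CAKI-1, IL6 and CTF1 (56 and 68 reads with BCAA against 111 and 93, limma adjusted p = 0.0097) fell. Among the receptors in 769-P, IL6R, the ligand-binding subunit for IL-6, rose by 0.87 (899 and 741 reads against 300 and 282, limma adjusted p = 2.2e-05), while OSMR, the oncostatin M receptor subunit, fell by 0.83 (8742 and 7120 reads against 8861 and 9426, limma adjusted p = 1.1e-07). The shared subunit IL6ST (0.09), LIFR (0.01) and IL11RA (-0.10) were not called, and in CAKI-1 none of the 5 receptors was. STAT3, the transcription factor downstream, rose by 0.17 in 769-P and 0.18 in CAKI-1 (limma adjusted p = 0.014 and 0.044), but these calls ended in 6 and 10 of 15 alternatives (adjusted p up to 0.26 and 0.29). Without replicate 1 or 2 with BCAA the 769-P value of STAT3 was 0.12 and 0.23. SOCS3, a feedback inhibitor induced by STAT3, was not called in either line (-0.15 and -0.04), and SOCS2 fell by 0.76 in 769-P. Of 14 JAK-STAT3 genes, 3 rose and 4 fell in 769-P, and 3 rose and 0 fell in CAKI-1. All-gene shares were 20.3% higher and 18.2% lower in 769-P, and 10.8% and 9.05% in CAKI-1.

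Of 16 NF-kappaB pathway genes tested in 769-P, 8 fell with BCAA and 2 rose, with a list median of -0.33. TNFAIP3 and TRAF1, which are themselves NF-kappaB targets, fell by 1.61 (1504 and 947 reads with BCAA, 2372 and 2376 without) and by 1.52 (427 and 293 against 633 and 695). The subunits RELB (-0.82) and RELA (-0.61) fell too, NFKB1 (-0.04) and the inhibitor NFKBIA (-0.05), another target, were not called, and BIRC3, also a known target, rose by 0.93 (29617 and 24481 reads against 9073 and 9362). NFKBIZ, an atypical inhibitor family member, rose by 0.17 (limma adjusted p = 0.025). In CAKI-1, 3 of 16 fell, TRAF1 (-0.48), RELB (-0.47) and TNFAIP3 (-0.40), and the list median was 0.01. These counts stand beside 18.2% of all genes called lower and 20.3% higher in 769-P, and 9.05% and 10.8% in CAKI-1.

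Of the factors that control decay of cytokine mRNA, 4 of 10 rose and 5 fell in 769-P, where 20.3% of all genes were called higher and 18.2% lower. The endonuclease ZC3H12A (regnase-1), which degrades IL6 mRNA, fell by 0.70, RC3H2 by 0.52 and ZFP36 (tristetraprolin) by 0.50, whereas HNRNPD rose by 0.55 and the stabilizing protein ELAVL1 by 0.45. In CAKI-1, 3 rose (ELAVL1 by 0.46, KHSRP by 0.36, HNRNPD by 0.18) and ZFP36L1 fell by 0.19, beside 10.8% and 9.05% of all genes.

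**Figure D4:**
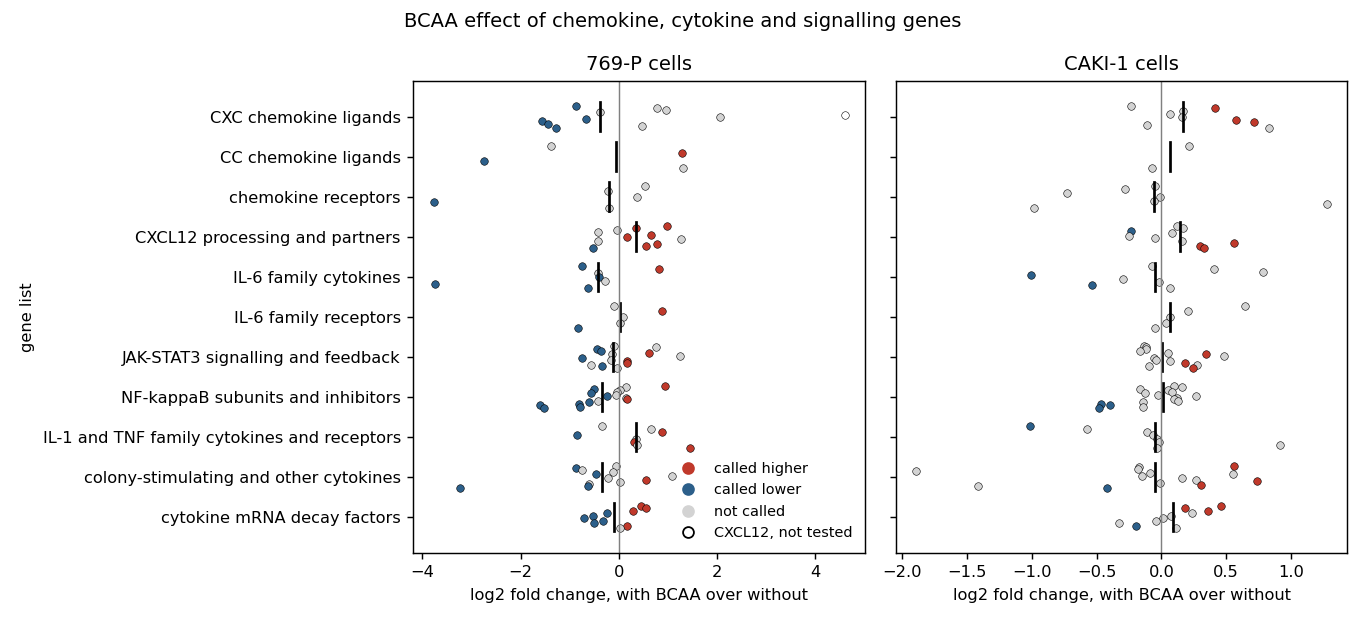
Log2 fold change with BCAA over without BCAA (x axis, on a different scale in each panel) of each tested gene of 11 lists in 769-P (left) and CAKI-1 (right), with a black bar at the list median and points coloured by limma's call. In 769-P the NF-kappaB list has 8 lower and 2 higher calls, and in CAKI-1 the CXC ligands have 3 higher and 0 lower. Over all genes 18.2% were called lower and 20.3% higher in 769-P, and 9.05% and 10.8% in CAKI-1.

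Other cytokines showed a few large changes. VEGFA, the angiogenic factor, fell by 3.23 in 769-P, with 3457 and 2962 reads with BCAA and 19540 and 19743 without (limma adjusted p = 2.5e-12), and by 0.42 in CAKI-1 (1406 and 2257 reads against 2135 and 1754, limma adjusted p = 0.033). The CAKI-1 call of VEGFA ended in 9 of 15 alternatives (adjusted p up to 0.49), with values of -0.19 and -0.65 without replicates 1 and 2 with BCAA. TNFSF10 (TRAIL) rose by 1.44 in 769-P, with 24907 and 23027 reads with BCAA and 5559 and 5962 without. CSF2 (GM-CSF) fell by 0.87 in 769-P and was not called in CAKI-1 (-0.17, 95% interval -0.66 to 0.32). In CAKI-1, KITLG rose by 0.73 and CSF1 by 0.56, and IL18 fell by 1.01 (526 and 775 reads against 1239 and 890).

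**Figure D5:**
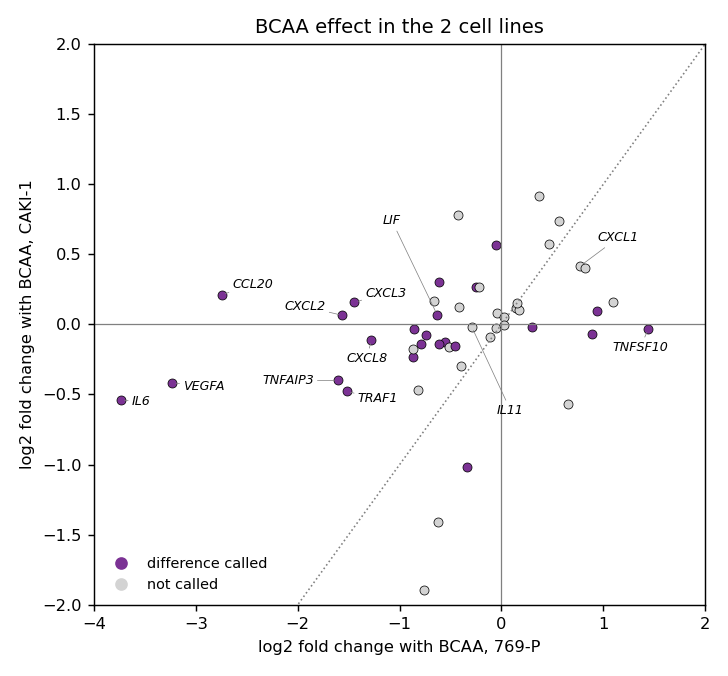
Log2 fold change with BCAA in 769-P (x axis) against that in CAKI-1 (y axis) for 50 chemokine, cytokine and NF-kappaB genes tested in both lines, CXCL12 not among them, with the dotted line marking equal effects and purple points the 24 genes whose difference limma called. IL6, VEGFA and CCL20 lie farthest to the left, with CAKI-1 values between -0.54 and 0.21.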

How the data were processed

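RNA-seq of 769-P and CAKI-1 cells with and without BCAA was analysed from the expression table the authors deposited for each line. The submitters' processing notes name Trim Galore, TopHat2 2.1.0, SAMtools 1.3.1, HTSeq 0.6.0, DESeq2, DESeq and the build hg38. The annotation, strand setting and filters are not given in the sources used here. The deposited values are a signal, namely reads per gene divided by one size factor per library by the authors. All values (100% in each library, tolerance 0.001 reads plus 0.000001 of the reads) were whole multiples of the value of 1 read, so reads were recovered. Libraries held 30979773 to 64256834 reads, and reads of single genes carry counting error on top of the spread between libraries. Value columns left unused because they belong to other samples numbered 0.

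In each line, genes averaging 1 or more were fitted with limma 3.58.1 (R 4.3.3, eBayes with trend) on log2(value + 1). P-values were adjusted over all genes tested by the Benjamini-Hochberg method, with a threshold of 0.05. Folds on this scale understate the change of low genes. The difference between lines was the interaction term over 8 libraries, with a residual spread shared by both lines. On recovered reads, edgeR 4.0.16 called 8794 genes in 769-P and 4397 in CAKI-1, and DESeq2 1.42.0 called 7537 and 3790. With 2 libraries per group an exact two-sided permutation test of one gene cannot go below p = 0.333. The limma procedure was tested on a single simulated data set per line. The share of false calls there was above the threshold for CAKI-1 and not for 769-P. Far fewer genes were changed in the simulations than were called in the data, so that share does not carry over to the real calls. Single CAKI-1 calls are still to be read with caution.

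The members and gene lists were chosen with earlier results of these data known. Named genes were the 10 members, a fixed set of related genes, up to 3 called genes per list and line with the largest change, groups that did not overlap and a mean value of at least 20, and the 5 genes most like CXCL12. CX3CL1, CXCL16, CD44, EBI3, NFKBIZ, CSF1R, PDGFRB and COL1A1 fall outside that rule and were named after their values were seen. Promoter windows were RefSeq GRCh38.p14, searched over 300 bases on both strands and aligned with Biopython 1.88. Alternatives covered pseudocount, filter, scaling, test, depth, replicate block, left-out libraries and shared spread.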

Additional observations from a re-analysis of the deposited data

Results flagged for a closer look

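Of 106 genes of the lists tested in both lines, 47 (44.3%) had a BCAA effect that differed between 769-P and CAKI-1 by the interaction term in limma, against 21.1% of all 19406 genes. The 106 include the cell type markers, and the lists were chosen with earlier results of these data known, so this share is a description. Values are given for the 32 of these covered by the rule for named genes, and of the other 15, 5 were further up and 10 further down in 769-P. Values are the log2 effect in 769-P minus that in CAKI-1.

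Among the members, the difference was -3.20 for IL6, -1.63 for CXCL2, -1.16 for CXCL8 and -0.70 for LIF. Of the other chemokines, CCL20 gave -2.96 and CXCL3 -1.60. Of the genes around CXCL12, SDC4 gave -0.87, DPP4 0.90, ARRB1 0.87, SDC1 0.24 and HMGB1 0.22, and the calls of SDC1 and HMGB1 each ended in 8 of 18 alternatives (adjusted p up to 0.12 and 0.10).

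Of the IL-6 family and JAK-STAT3 genes, the difference was -0.78 for OSMR, -0.70 for SOCS2, -0.66 for CLCF1, -0.48 for PTPN11, -0.33 for JAK1, -0.28 for TYK2 and 0.56 for PIAS3, and the TYK2 call ended in 9 of 18 alternatives (adjusted p up to 0.18). Of the NF-kappaB genes it was -1.21 for TNFAIP3, -1.04 for TRAF1, -0.47 for RELA and 0.84 for BIRC3. Of the remaining cytokines and receptors it was -2.81 for VEGFA, -0.82 for IL1RAP, -0.62 for CSF1, 0.67 for IL18, 0.95 for IL1R1 and 1.48 for TNFSF10. Of the mRNA decay factors it was -0.72 for ZC3H12A, -0.60 for RC3H2, 0.35 for ZFP36L1 and 0.36 for HNRNPD. Calls also ended in 3 of 18 alternatives for CCL20, 4 for IL18 and 1 for SOCS2, and the 26 others kept theirs in all 18.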

How the results depend on the processing

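With 2 libraries per group, leaving one out left 1 residual degree of freedom in limma and a lone library assumed to vary like the other group. In 769-P the genes called higher then ranged from 1173 to 1632 and those called lower from 658 to 1456 (4536 and 4069 with all libraries), the members other than CXCL12 called higher were 0 and called lower 2 to 3 (1 and 5 with all). In CAKI-1 all these counts were 0, with 4084 to 5590 genes at an unadjusted p under 0.05. Quantile normalization gave 1417 genes called higher in CAKI-1 and 0 members in either direction, and the spread from all 8 libraries also gave 0 members in either direction there. Members whose effect was further up in 769-P numbered 0 to 1 with a library left out, the 1 being CXCL1. The causes were not tested. Of 33 single genes covered by the rule for named genes and called in 769-P, 23 lost the call in at least 1 setting with a library left out and 4 under another alternative (CXCR4, STAT3, CNTF and TSLP). Of 21 in CAKI-1, 21 and 10 did so, the latter being CXCL1, IL6, CXCL5, STAT3, TYK2, TRAF1, RELB, VEGFA, KITLG and ZFP36L1.

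Replicate numbers were shared between groups, but deviations of same-numbered libraries correlated at -0.088 in 769-P and 0.061 in CAKI-1 over genes with a mean of at least 100, so the numbers were not treated as pairs. With the replicate block, limma called 8925 genes in 769-P, 3936 in CAKI-1 and 3491 for the difference between lines, and it changed no call of a member. It ended the CAKI-1 calls of STAT3 and ZFP36L1 and the called differences of HMGB1, SDC1 and TYK2 (adjusted p from 0.051 to 0.077).

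Uncalled values near 0 changed sign. Under median centring NFKB1 in 769-P became 6.7e-05, and in CAKI-1 IL11 became 0.021, SOCS3 0.0014 and NFKBIA 0.014, while ZC3H12A became -0.020 under quantile normalization. With each library left out in turn, values in 769-P ran from -0.23 to 1.16 for CXCL5, -1.10 to 0.32 for CXCL11, -0.18 to 0.21 for LIFR and -0.12 to 0.041 for NFKB1. In CAKI-1 they ran from -0.24 to 0.37 for CXCL2, -0.43 to 0.21 for CXCL8, -0.23 to 0.19 for IL11, -0.019 to 0.16 for LIF, -0.0059 to 0.32 for CXCL3, -0.086 to 0.50 for IL6R, -0.066 to 0.14 for LIFR, -0.16 to 0.059 for OSMR, -0.18 to 0.099 for SOCS3, -0.082 to 0.027 for NFKBIA, -0.12 to 0.15 for ZC3H12A and -0.66 to 0.32 for CSF2. The all-gene median shifted by less than 0.1 under every scaling tried. On the forward strand alone CXCR4 lost its NF-kappaB-like match. Genes with few reads, CXCR4 and IL6 in 769-P above all, are limited by depth.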
